A study of Homo sapiens with 8 samples.

Results

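The ligands and receptors of the tumour necrosis factor (TNF) superfamily were examined in Reh, a human leukaemia cell line of the precursor B lineage (acute lymphoblastic leukaemia). The list held 41 genes, and each was followed through every probe set annotated to it alone. Of these, 40 genes had such a probe set, 14 ligands and 26 receptors with 82 probe sets in all, out of 19775 genes and 41091 probe sets with exactly 1 symbol. CD40LG, the remaining gene, was not analysed here. Expression had been measured on Affymetrix U133 Plus 2.0 oligonucleotide arrays, 8 in all, in 4 groups of 2 arrays numbered 1 and 3. All cells were transfected Reh cells. The mock group had received control constructs, the second group IRF5-4D, the third IKKβ(EE), and the fourth got both variants at once, called the combination here. IRF5-4D is a constitutively active variant of the transcription factor IRF5, and IKKβ(EE) is a constitutively active variant of IKKβ, the kinase, encoded by IKBKB, that marks the inhibitors of NF-κB for degradation. The series text calls the hybridizations biological duplicates; whether the arrays come from separate cultures is not said, and p-values measure the spread between these arrays. The labels used here do not state the time from transfection to harvest, the share of cells that took up a construct or the promoters that drive them. In such bulk samples a response in more cells and more RNA per responding cell cannot be told apart.

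TNF superfamily ligands are mostly membrane-bound or shed trimers, and their receptors are surface proteins that recruit TRAF adaptors or, in the death receptors, the adaptor FADD. TRAF-linked receptors such as CD40, TNFRSF9 and the lymphotoxin beta receptor activate NF-κB and promote survival and costimulation, whereas FAS and the TRAIL receptors can start apoptosis. In B-lineage cells CD40 receives help from T cells, and lymphotoxins made by B cells organise lymphoid tissue. Several of these genes are known targets of NF-κB.

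The arrays were checked first. The probe set of IKBKB that responded read 4.80 and 4.06 in mock cells (log2 RMA expression value on arrays 1 and 3), 4.68 and 4.60 with IRF5-4D, 12.57 and 10.98 with IKKβ(EE), and 11.11 and 9.33 in the combination, so it separated the groups labelled with IKKβ(EE) from the others. The 3 probe sets of IRF5 differed from mock by 0.051 to 0.57 with IRF5-4D and none passed the test, so they do not check that label; 1 of them rose in the combination, by 0.92 (SE 0.13). Of 12 measured B-lineage markers 11 lay above the array median on every array, among them PAX5 (12.80 to 13.16), EBF1 (12.66 to 13.14) and DNTT (13.97 to 14.24). VPREB1, a surrogate light chain gene, read 4.06 to 4.46, below it, whereas IGLL1 on the same list read 12.41 to 13.02. None of the 12 was called in any of the 7 limma comparisons. Of 10 T and NK cell markers 6 lay below the array median (at most 5.14) on every array. The log2 levels of that list summed to between 48.7 and 49.2 in mock cells, 48.4 in IRF5-4D cells, 48.0 to 48.2 with IKKβ(EE) and 48.7 to 49.8 in the combination. CD3D, CD3E and CD2 read at most 4.91, whereas CD5 (6.01 to 6.27) and CD4 (5.74 to 6.46) lay above the array median on every array. NKG7 was the 1 marker of that list that rose (1.34 in the combination, from a mock level of 4.49 and 4.79). Of 8 myeloid markers 5 lay below the array median throughout, and 0 passed. Of 10 stromal and epithelial markers 4 lay below it throughout, and among the others COL1A1 read 7.35 to 7.82.

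Across the list more members were called in the combination than with either construct alone. A gene was called at a limma adjusted p under 0.05 (Benjamini-Hochberg over all 19775 genes), with the probe set of the highest mean standing for the gene. With IRF5-4D 2 of 40 genes rose against mock, LTA and CD40 (5% of the list; 0.314% of all genes rose in that comparison). With IKKβ(EE) 4 rose, CD70, CD40, FAS and TNFRSF9 (10%; 0.516% of all genes). In the combination 10 rose, the 6 ligands LTA, LTB, CD70, TNFSF4, TNFSF9 and TNFSF10 and the 4 receptors CD40, FAS, TNFRSF9 and TNFRSF14 (25%; 2.66% of all genes). None fell in these 3 comparisons, in which 0.00506%, 0% and 0.501% of all genes fell. The 3 comparisons share the mock arrays. The median difference of the 14 ligands was 0.28 with IRF5-4D, 0.19 with IKKβ(EE) and 0.95 in the combination (log2), and that of the 26 receptors was -0.047, 0.053 and 0.073. Over all genes the medians were -0.016, -0.025 and -0.027. CD40 was the gene called in all 3. The counts ranged from 0 to 4 with IRF5-4D, from 1 to 5 with IKKβ(EE) and from 8 to 11 in the combination when 1 array was left out; with IRF5-4D it was 1 without either mock array, 0 without either IRF5-4D array and 4 without either combination array. With IKKβ(EE) it was 1 without mock array 3 and 2 without either IRF5-4D array or IKKβ(EE) array 1.

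**Figure D1:**
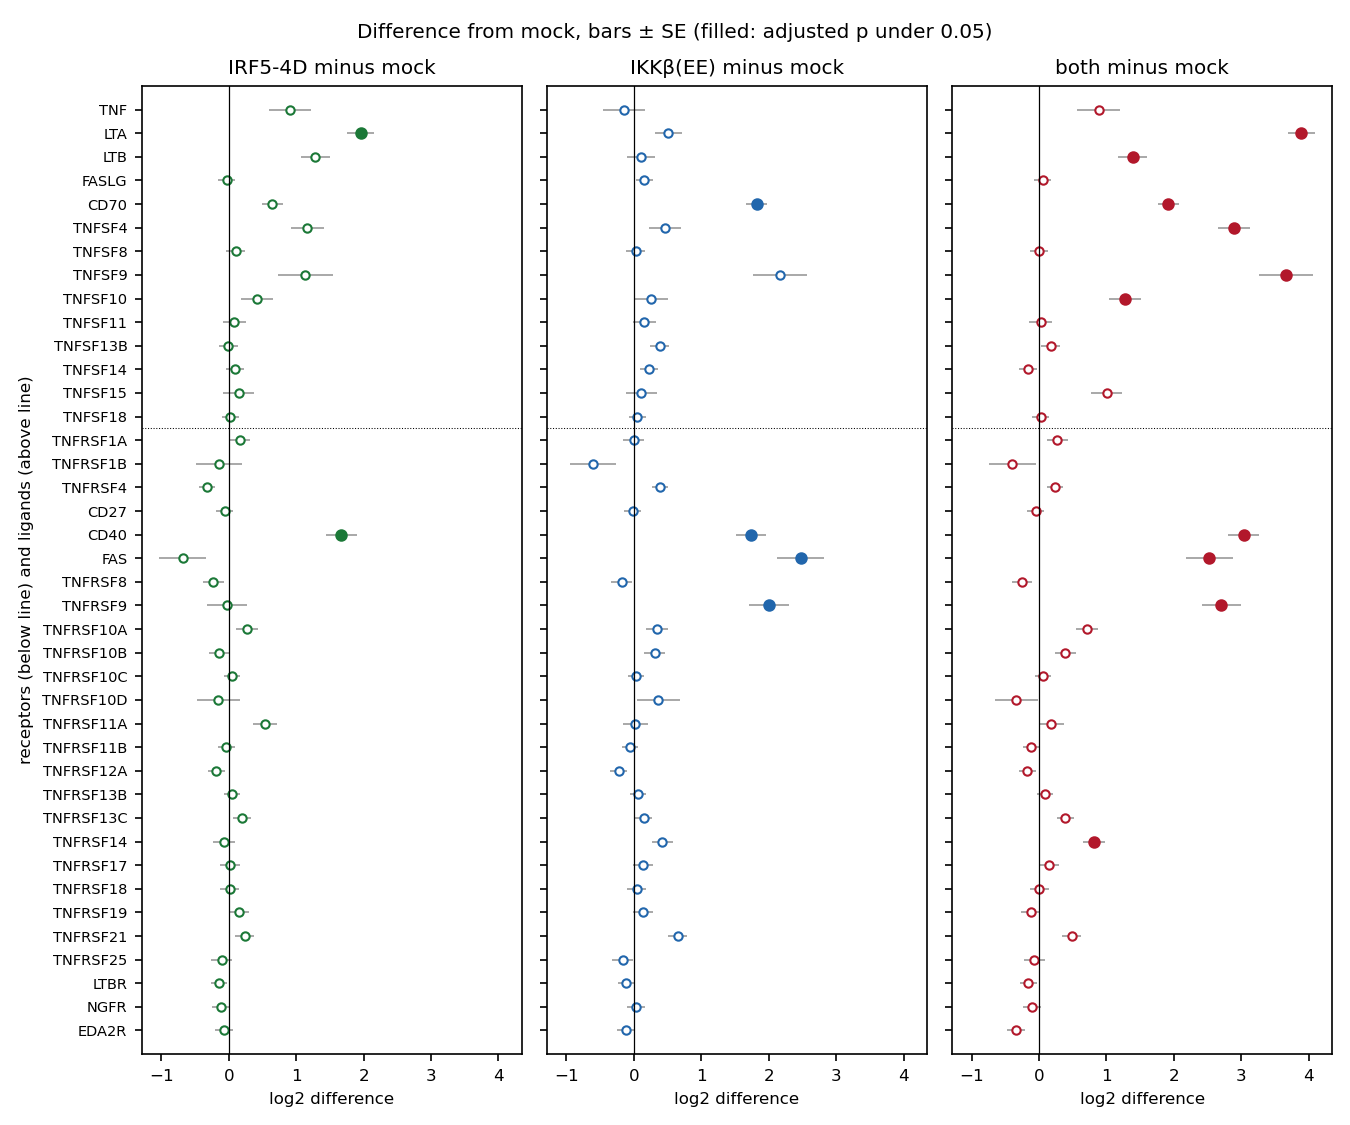
Log2 difference from mock for the 40 measured TNF superfamily genes (horizontal axis) with IRF5-4D, IKKβ(EE) and both constructs; bars are ± the moderated standard error and filled points had a limma adjusted p under 0.05. The filled points number 2, 4 and 10 from left to right and all lie to the right of 0.

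Upstream sequence was taken from RefSeq (GRCh38.p14), since the constructs carry a kinase that acts on NF-κB and a factor of the IRF family, and matches to the motifs of both could be looked for. The table held 27 of the 40 measured genes and 8 of the 10 that rose. The 250 bases before each start were searched on both strands for the NF-κB consensus and for an IRF core, 2 copies of GAAA with any 2 bases between them. The consensus searched was GGG, then A or G, any 2 bases, 2 of C or T, and CC. A match to the NF-κB consensus stood upstream of 5 of those 8 genes, against 3 of 19 members that were not called in the combination and 11.8% of 27305 genes in the table. The IRF core stood upstream of 2 of the 8, TNFSF9 and TNFSF10, against 3 of the 19 and 3.71% of all genes. A gene with several starts counted once, when any of its windows held a match. TNFSF4, which also rose, held neither, and CD40 and CD70 were not in the table. The windows of TNFRSF9 and LTB (NF-κB consensus in capitals) and of TNFSF9 and TNFSF10 (IRF core in capitals) are printed 5′ to 3′ in the direction of the gene. In LTB and TNFSF10 the match lies on the opposite strand only, so the capitals there are its reverse complement. In TNFRSF9 the capitals span overlapping matches on both strands.
TNFRSF9, chr1:7940840-7941089 (reverse strand): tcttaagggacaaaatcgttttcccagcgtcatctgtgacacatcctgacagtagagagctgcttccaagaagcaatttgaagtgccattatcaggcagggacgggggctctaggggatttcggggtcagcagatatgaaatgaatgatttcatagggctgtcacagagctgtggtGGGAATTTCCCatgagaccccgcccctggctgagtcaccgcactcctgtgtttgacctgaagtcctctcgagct
LTB, chr6:31582426-31582675 (reverse strand): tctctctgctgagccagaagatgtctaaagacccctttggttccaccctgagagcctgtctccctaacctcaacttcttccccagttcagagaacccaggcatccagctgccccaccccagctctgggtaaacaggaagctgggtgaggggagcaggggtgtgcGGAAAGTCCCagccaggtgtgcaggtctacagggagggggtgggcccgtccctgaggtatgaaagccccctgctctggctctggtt
TNFSF9, chr19:6530776-6531025 (forward strand): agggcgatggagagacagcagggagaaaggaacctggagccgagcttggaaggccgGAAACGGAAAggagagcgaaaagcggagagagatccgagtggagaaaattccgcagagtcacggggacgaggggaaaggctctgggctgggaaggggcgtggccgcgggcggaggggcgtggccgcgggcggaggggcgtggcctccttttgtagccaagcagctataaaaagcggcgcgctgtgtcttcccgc
TNFSF10, chr3:172523431-172523680 (reverse strand): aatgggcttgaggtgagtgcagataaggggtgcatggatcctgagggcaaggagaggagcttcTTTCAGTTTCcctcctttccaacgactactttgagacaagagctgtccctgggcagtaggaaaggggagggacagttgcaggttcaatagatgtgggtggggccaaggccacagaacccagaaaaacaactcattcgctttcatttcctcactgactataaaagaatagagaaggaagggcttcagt
For 3 more genes 30 bases around the NF-κB match are shown, again with the match or overlapping matches in capitals.
LTA, chr6:31572176-31572205 (forward strand): ctaagccctGGGGGCTTCCCcgggccccag
FAS, chr10:88991264-88991293 (forward strand): ggtcgctggaGGGGGACCCCggttggagag
TNFRSF14, chr1:2556276-2556305 (forward strand): atggactttGGGGGGCTCCCCcttctacag
In TNFRSF9 the matches begin 74 bases before the start, in TNFRSF14 86, in LTB 86, in LTA 104 and in FAS 157 bases. For TNFRSF14, LTA and FAS the window belongs to a start inside the gene as RefSeq draws it. A match is a description of letters and not a measured binding site.

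**Figure D2:**
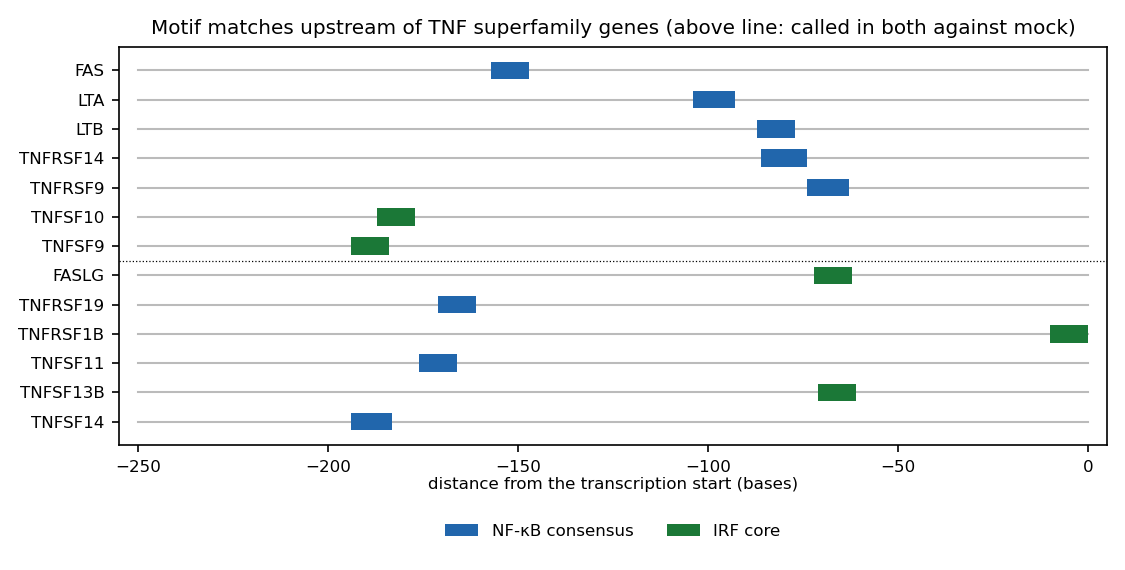
Position of each motif match in the 250 bases before the transcription start (horizontal axis, in bases) for the 13 measured genes with a match; blue marks the NF-κB consensus, green the IRF core, and the 7 genes above the dotted line rose in the combination. The NF-κB matches of LTA, LTB, TNFRSF9 and TNFRSF14 begin between 104 and 74 bases before the start.

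LTA, LTB and TNF lie next to each other on chromosome 6 and encode the lymphotoxins and TNF. LTA, whose product is secreted or joins lymphotoxin beta on the membrane, read 7.21 and 7.12 in mock cells (log2, arrays 1 and 3), 9.14 and 9.09 with IRF5-4D, 7.76 and 7.59 with IKKβ(EE), and 11.40 and 10.70 in the combination. The 4 groups did not overlap, and the mock arrays were lowest. LTA rose by 1.96 (SE 0.20) or 3.88-fold with IRF5-4D (limma adjusted p = 0.0038) and by 3.89 (SE 0.20) or 14.8-fold in the combination (adjusted p = 1.78e-05). With IKKβ(EE) alone it read 0.51 (SE 0.20) above mock and did not pass (adjusted p = 0.611). The call with IRF5-4D was lost without array 1 (1.93, adjusted p = 0.0724) or array 3 (1.98, adjusted p = 0.0601) of that group, while the call in the combination held whichever array was left out.

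LTB, which anchors lymphotoxin heterotrimers in the membrane, read 10.77 and 10.33 in mock cells, 11.72 and 11.95 with IRF5-4D, 10.43 and 10.88 with IKKβ(EE), and 11.73 and 12.15 in the combination. The groups with IRF5-4D lay above both others and overlapped each other. LTB rose by 1.39 (SE 0.21) or 2.63-fold in the combination (limma adjusted p = 0.00862), and by 0.77 with the mean of its 2 probe sets (adjusted p = 0.0109). With IRF5-4D it read 1.29 (SE 0.21) above mock and missed the threshold (adjusted p = 0.0579). That difference passed with limma's trend option (adjusted p = 0.0348) and with the array number as a block (adjusted p = 0.0328). Without either combination array it was unchanged at 1.29. TNF itself read 9.68 and 9.41 in mock cells, 10.61 and 10.29 with IRF5-4D, 9.57 and 9.23 with IKKβ(EE), and 11.01 and 9.86 in the combination. Its IRF5-4D arrays lay above its mock arrays, but the difference of 0.91 (SE 0.32) did not pass (limma adjusted p = 0.876). Nor did the 0.89 (SE 0.32) of the combination (adjusted p = 0.204), though it passed with the array number as a block (limma adjusted p = 0.0455). That value rested on which combination array was kept: it was 0.31 without array 1 (adjusted p = 0.606) and 1.46 without array 3 (adjusted p = 0.00871).

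Of the costimulatory ligands, CD70, the ligand of CD27, read 9.40 and 9.26 in mock cells, 9.93 and 10.02 with IRF5-4D, 11.29 and 11.02 with IKKβ(EE), and 11.43 and 11.07 in the combination. The IKKβ(EE) and combination arrays overlapped and lay above the rest. CD70 rose by 1.82 (SE 0.16) or 3.54-fold with IKKβ(EE) (limma adjusted p = 0.00165) and by 1.92 (SE 0.16) or 3.78-fold in the combination (adjusted p = 0.000211), and both calls held with any 1 array left out.

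TNFSF4, the ligand of the OX40 receptor on activated T cells, read 8.65 and 8.42 in mock cells, 9.76 and 9.65 with IRF5-4D, 9.15 and 8.86 with IKKβ(EE), and 11.85 and 11.02 in the combination. All 4 groups were separate. TNFSF4 rose by 2.89 (SE 0.24) or 7.44-fold in the combination (limma adjusted p = 0.00023). The values with IRF5-4D (1.17, SE 0.24, adjusted p = 0.173) and IKKβ(EE) (0.46, SE 0.24, adjusted p = 0.753) did not pass. The IRF5-4D value passed with the array number as a block (limma adjusted p = 0.0205) and when only the groups compared were fitted (adjusted p = 0.0267). Without either combination array it was unchanged at 1.17.

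TNFSF9, the ligand of TNFRSF9, read 6.64 and 5.66 in mock cells, 7.47 and 7.11 with IRF5-4D, 8.63 and 8.004 with IKKβ(EE), and 10.37 and 9.26 in the combination. The groups formed a series without overlap from mock to the combination. TNFSF9 rose by 3.66 (SE 0.40) or 12.7-fold in the combination (limma adjusted p = 0.00128), in which the call held in all 8 fits without 1 array. It read 2.17 (SE 0.40) above mock with IKKβ(EE) and missed the threshold (adjusted p = 0.0656). With the array number as a block that difference passed (limma adjusted p = 0.000755), and without either combination array it was unchanged at 2.17. TNFSF10 (TRAIL), a ligand of death receptors, read 7.01 and 6.93 in mock cells, 7.42 and 7.35 with IRF5-4D, 7.29 and 7.17 with IKKβ(EE), and 8.69 and 7.79 in the combination. TNFSF10 rose by 1.28 (SE 0.24) or 2.42-fold in the combination (limma adjusted p = 0.0228). The call was lost when only the groups compared were fitted (adjusted p = 0.121). It was also lost without mock array 1 (1.32), mock array 3 (1.23) or either IRF5-4D array (1.28). Without combination array 1 the difference was 0.82.

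**Figure D3:**
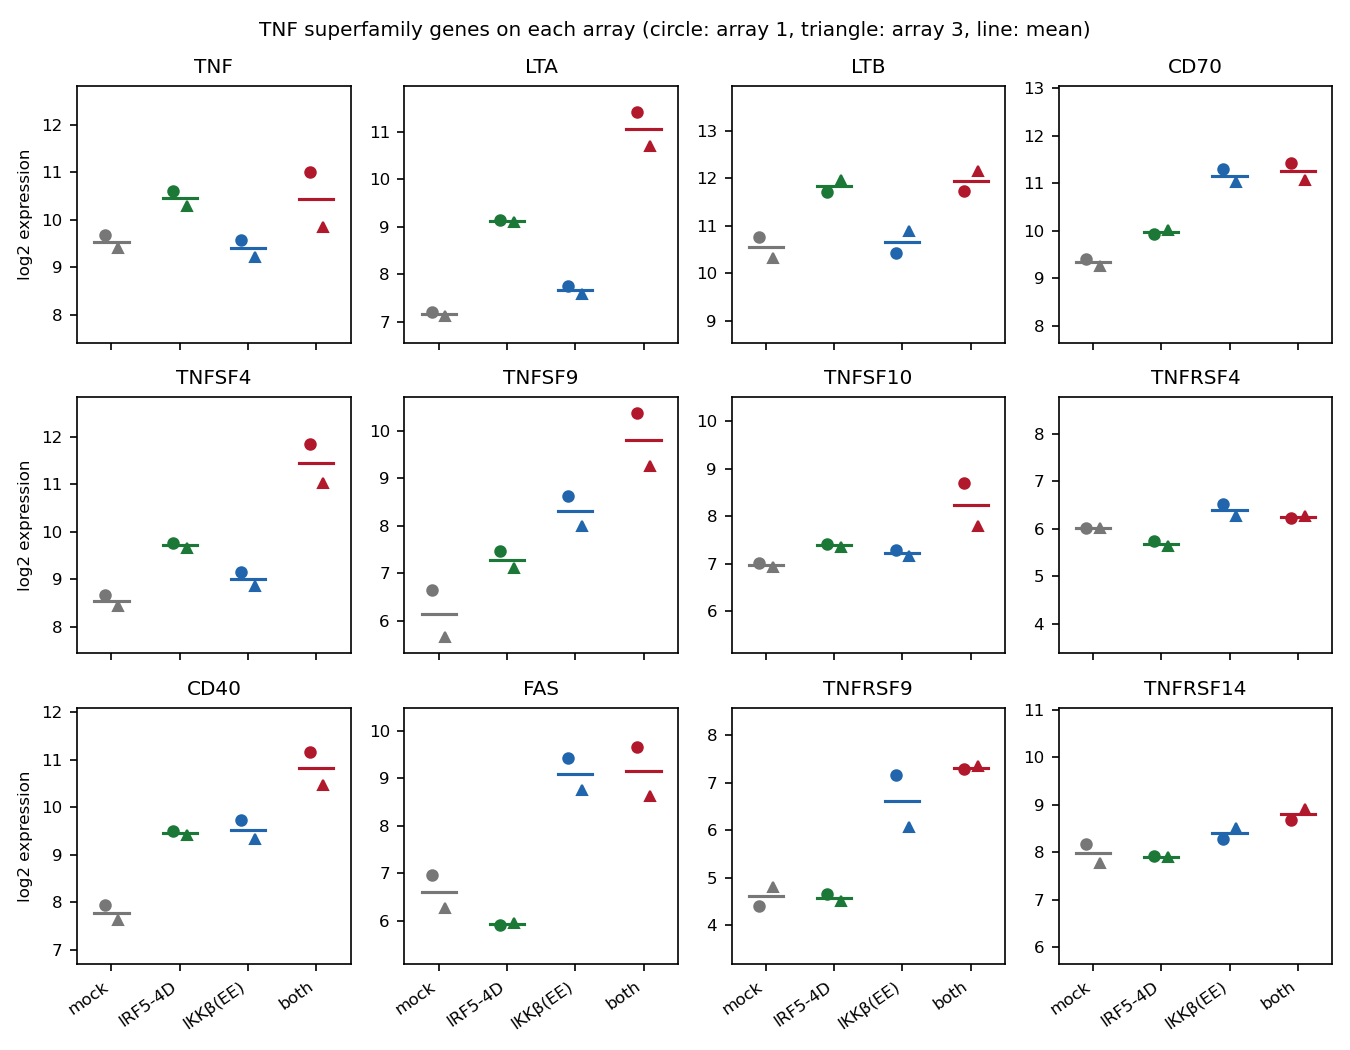
Log2 expression value on each of the 8 arrays (vertical axis, each panel spanning the same range) for TNF and the 11 members called in any comparison; circles are arrays 1, triangles arrays 3, lines group means, and "both" is the combination. LTA, TNFSF4, TNFSF9 and CD40 were highest on the combination arrays, whereas FAS and CD70 overlapped between IKKβ(EE) and both.

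Among the receptors, CD40, through which T cells activate B cells, read 7.94 and 7.63 in mock cells, 9.50 and 9.41 with IRF5-4D, 9.72 and 9.32 with IKKβ(EE), and 11.16 and 10.48 in the combination. The single-construct groups overlapped each other and lay between mock and the combination. CD40 rose by 1.67 (SE 0.23) or 3.19-fold with IRF5-4D (limma adjusted p = 0.0179), by 1.74 (SE 0.23) or 3.34-fold with IKKβ(EE) (adjusted p = 0.0115) and by 3.04 (SE 0.23) or 8.20-fold in the combination (adjusted p = 0.000135). The combination call held without any 1 array. The IRF5-4D call was lost without either mock or either IRF5-4D array (1.52 to 1.83), and the IKKβ(EE) call without mock array 3 (1.58) or IKKβ(EE) array 1 (1.54).

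FAS, the death receptor for FAS ligand, read 6.96 and 6.27 in mock cells, 5.91 and 5.95 with IRF5-4D, 9.42 and 8.75 with IKKβ(EE), and 9.66 and 8.62 in the combination. Both groups with IKKβ(EE) lay above both groups without it, and the IRF5-4D arrays were the lowest. FAS rose by 2.47 (SE 0.35) or 5.56-fold with IKKβ(EE) (limma adjusted p = 0.0179) and by 2.53 (SE 0.35) or 5.77-fold in the combination (adjusted p = 0.00508). With IRF5-4D alone it read -0.68 (SE 0.35) and did not pass (adjusted p = 0.963). The IKKβ(EE) call was lost without mock array 3 (2.13, adjusted p = 0.0959), IKKβ(EE) array 1 (2.14, adjusted p = 0.21) or either IRF5-4D array (2.47, adjusted p = 0.0625).

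ACTA2, the smooth muscle actin gene, stands next to FAS in the RefSeq annotation and was on the list of stromal and epithelial markers. It read 6.78 and 6.62 in mock cells, 5.91 and 5.88 with IRF5-4D, 8.16 and 7.76 with IKKβ(EE), and 7.18 and 7.10 in the combination. The 4 groups were separate, with IRF5-4D lowest and IKKβ(EE) highest. ACTA2 rose by 1.26 (SE 0.15) with IKKβ(EE) (limma adjusted p = 0.00733), and it was the 1 of 10 markers on that list called in any comparison. Its part in the FAS values was not tested.

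TNFRSF9 (CD137), a costimulatory receptor, read 4.41 and 4.80 in mock cells, 4.66 and 4.50 with IRF5-4D, 7.16 and 6.07 with IKKβ(EE), and 7.28 and 7.34 in the combination. Mock and IRF5-4D arrays overlapped below the array medians, so the starting level is not shown to lie above background and the size of the change is uncertain. TNFRSF9 rose by 2.01 (SE 0.29) with IKKβ(EE) (limma adjusted p = 0.0216) and by 2.71 (SE 0.29) in the combination (adjusted p = 0.0012). The combination call held without any 1 array, and the IKKβ(EE) call was lost without mock array 1 (1.82), mock array 3 (2.20) or either IRF5-4D array (2.01). The IKKβ(EE) call was also lost when only the groups compared were fitted (limma adjusted p = 0.101). Only the brightest of its 3 probe sets passed with IKKβ(EE), the others reading 0.32 and 0.12. With the mean of all 3 the IKKβ(EE) value was 0.82 and did not pass (limma adjusted p = 0.286), and the combination value was 1.43 (adjusted p = 0.0103). TNFRSF14 (HVEM), a receptor for TNFSF14 and lymphotoxin alpha, read 8.18 and 7.78 in mock cells, 7.92 and 7.90 with IRF5-4D, 8.28 and 8.52 with IKKβ(EE), and 8.69 and 8.91 in the combination. It rose by 0.82 (SE 0.16) or 1.76-fold in the combination (limma adjusted p = 0.0285). The call was lost without mock array 3 (0.62), either IRF5-4D array (0.82), combination array 1 (0.93) or combination array 3 (0.71). It was also lost when only the groups compared were fitted (adjusted p = 0.117).

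The construct groups were then compared with each other, which asks whether a member responded differently to IRF5-4D and to IKKβ(EE). In the direct comparison 6 of 40 members were called (15%), 4 higher with IKKβ(EE), where 0.45% of all genes were, and 2 lower, where 0.314% were. FAS was 3.16 (SE 0.35) or 8.92-fold higher with IKKβ(EE) than with IRF5-4D (limma adjusted p = 0.00414), TNFRSF9 2.04 (SE 0.29) higher (adjusted p = 0.014) and CD70 1.18 (SE 0.16) or 2.27-fold higher (adjusted p = 0.0098). LTA read -1.44 (SE 0.20) in the same direction, that is 2.72-fold higher with IRF5-4D (adjusted p = 0.0127), and LTB -1.18 (SE 0.21) or 2.27-fold higher with IRF5-4D (adjusted p = 0.0477). The call of LTB was lost in 4 other settings, among them the mean of all probe sets, where it was -0.55 (adjusted p = 0.13). TNFRSF9 was also lost with the mean of all probe sets (0.86, limma adjusted p = 0.21). The sixth was TNFRSF4 (OX40), the receptor of TNFSF4, at 0.71 (SE 0.12, adjusted p = 0.0398). It read 6.01 and 6.01 in mock cells, 5.74 and 5.63 with IRF5-4D and 6.52 and 6.27 with IKKβ(EE), and its other probe set read -0.19, and the call was lost without any 1 array, so that value is uncertain. Without IKKβ(EE) array 1 the count was 1 and without array 3 it was 3. All 6 calls were lost without either array of IRF5-4D, with differences of -1.42 and -1.47 for LTA, 3.14 and 3.18 for FAS, 2.11 and 1.96 for TNFRSF9, and 1.14 and 1.22 for CD70 without arrays 1 and 3. CD40 differed by 0.067 between the constructs (95% interval -0.45 to 0.58).

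Against IRF5-4D alone the combination raised 8 of 40 members (20%; 1.22% of all genes rose). FAS stood 3.21 (SE 0.35) higher, TNFRSF9 2.73 (SE 0.29), TNFSF9 2.52 (SE 0.40), LTA 1.93 (SE 0.20), TNFSF4 1.73 (SE 0.24), CD40 1.36 (SE 0.23), CD70 1.27 (SE 0.16) and TNFRSF14 0.89 (SE 0.16). Against IKKβ(EE) alone it raised 4 (10%; 1.37% of all genes): LTA by 3.38 (SE 0.20), TNFSF4 by 2.43 (SE 0.24), CD40 by 1.30 (SE 0.23) and LTB by 1.29 (SE 0.21). LTA, TNFSF4 and CD40 passed both of these tests. Of the other members that rose against mock, TNFSF9, TNFSF10, TNFRSF9 and TNFRSF14 also lay above all single-construct arrays in the combination, without passing both. For TNFRSF9 the margin was narrow (7.28 against 7.16). The CD40 call against IKKβ(EE) was lost in 5 of the 8 fits without 1 array (0.95 to 1.498) and with the mean of all probe sets (1.21, limma adjusted p = 0.116), and the LTB call in 3 of the 8 (1.06 to 1.51). With the mean of all probe sets the LTB difference was 0.60 (limma adjusted p = 0.0478). Against IRF5-4D CD40 read 1.23 with that mean (limma adjusted p = 0.118) and 1.36 with only the groups compared (adjusted p = 0.0574), and neither passed. The calls of CD40 and TNFRSF14 against IRF5-4D also depended on which arrays were kept. Without 1 array the differences were 1.02 to 1.71 for CD40 and 0.78 to 0.997 for TNFRSF14. For FAS the combination differed from IKKβ(EE) by 0.053 (95% interval -0.73 to 0.84) and for CD70 by 0.092 (-0.26 to 0.44). Without either IRF5-4D array the count against IRF5-4D alone was 3, FAS, TNFRSF9 and LTA, and without combination array 1 it was 5. The IKKβ(EE) comparison held 2, LTA and TNFSF4, without IKKβ(EE) array 3, and 6 without combination array 3. These comparisons share the combination arrays with each other. The responding IKBKB probe set read -1.56 (SE 0.59) in the combination against IKKβ(EE) alone and did not pass (limma adjusted p = 0.354 over all probe sets). The part of that difference in these values was not tested.

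The interaction, in which the single-construct differences from mock are subtracted from that of the combination (log2), asks whether the constructs together did more or less than the sum of their log2 effects. None of 40 members was called in limma, and 25 of all genes were called (0.126%). Of the 40 members 5 had an unadjusted limma p under 0.05, as did 6.1% of all genes. The largest values were 1.42 (SE 0.28, limma adjusted p = 0.17) for LTA and 1.26 (SE 0.34, adjusted p = 0.415) for TNFSF4, and each passed in 1 of the 8 fits without 1 array, that without combination array 3 (1.77 with adjusted p = 0.00928, and 1.68 with adjusted p = 0.0248). Without combination array 1 they were 1.07 and 0.85. For LTB the interaction read 2.27e-05 (95% interval -0.68 to 0.68), for CD70 -0.55 (-1.05 to -0.056) and for CD40 -0.38 (-1.10 to 0.35).

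**Figure D4:**
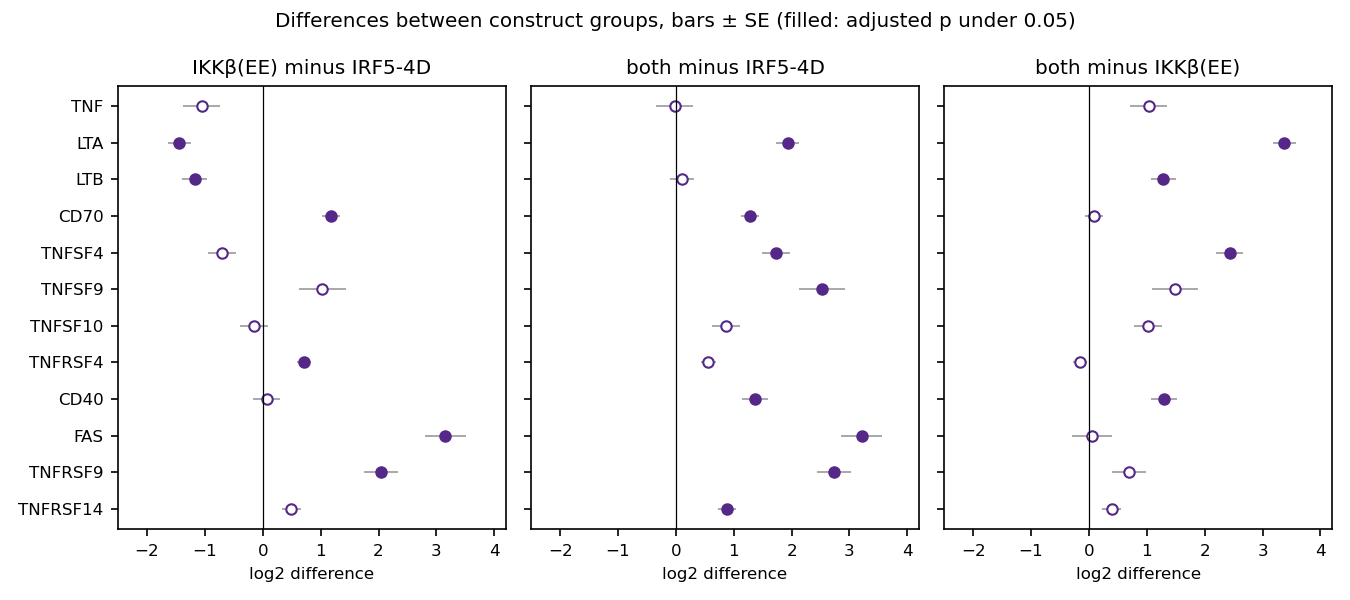
Log2 difference (horizontal axis) between IKKβ(EE) and IRF5-4D and between both constructs and each one alone for TNF and the 11 members called in any comparison; bars are ± the moderated standard error and filled points had a limma adjusted p under 0.05. In the left panel FAS, TNFRSF9, CD70 and TNFRSF4 lie right of 0 and LTA and LTB left of it.

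The probe sets of a gene were compared within the comparison of the combination with mock, where every probe set was also tested on its own and 21 of 82 passed (25.6%, against 2.55% of all probe sets). All 4 probe sets of CD40 passed (2.42 to 3.76). Of 5 probe sets of FAS 4 passed (2.53 to 3.07), and the fifth read 0.54 at a level of at most 4.82. TNFSF10 passed on 2 of 3 (1.28 and 1.30, the other at 1.05). TNFRSF9 passed on 2 of 3, at 2.71 and 1.002, with the other at 0.58, and LTB on 1 of 2, with the other at 0.15. Testing every probe set added TNFSF15, TNFRSF10A and TNFRSF10B to the 10 genes, each through a probe set other than the one that stood for the gene. TNFSF15, a ligand of TNFRSF25, read 1.16 (SE 0.19) on that probe set, with arrays at 3.06 and 3.08 in mock cells and 4.004 and 4.45 in the combination, and 1.003 (SE 0.23, limma adjusted p = 0.0556) on the other. Its levels lay below the array medians apart from combination array 1 of the latter, at 5.20. With the mean of its probe sets TNFSF15 passed in the combination against mock (1.08, limma adjusted p = 0.00104). That mean also passed against IRF5-4D (1.15, adjusted p = 0.00227) and IKKβ(EE) (1.01, adjusted p = 0.0023). The 1.003 against mock passed with limma's trend option (adjusted p = 0.0436). The TRAIL receptor genes TNFRSF10A and TNFRSF10B read 0.89 (SE 0.13) and 0.71 (SE 0.15).

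**Figure D5:**
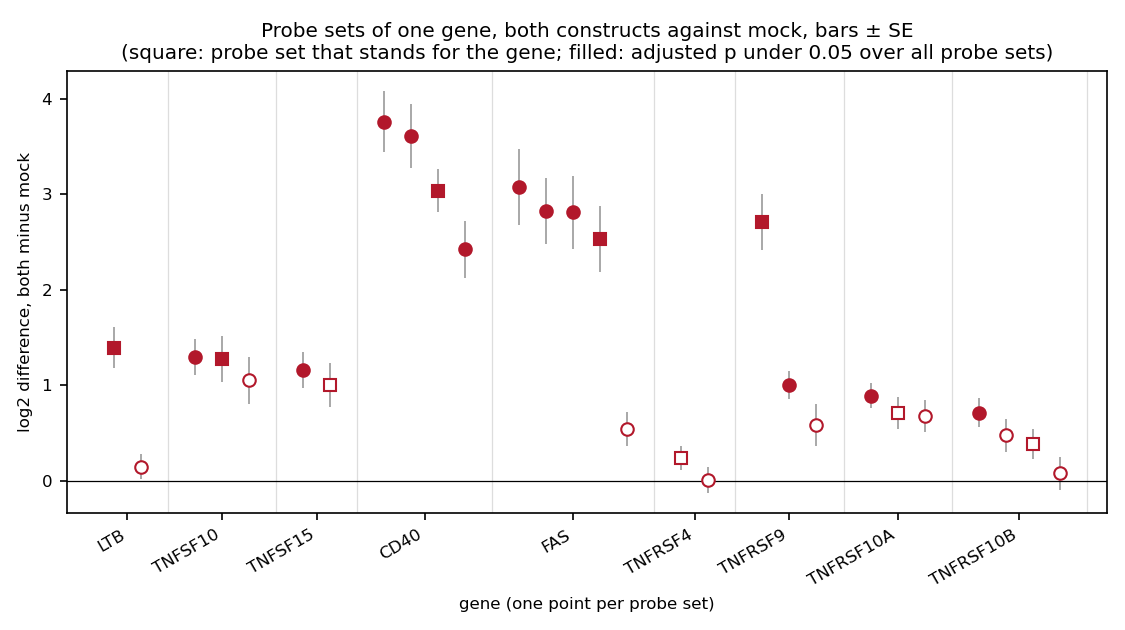
Log2 difference between both constructs and mock (vertical axis) for each probe set of 9 TNF superfamily genes; squares mark the probe set that stood for the gene, bars are ± the moderated standard error and filled points had an adjusted p under 0.05 over all probe sets. All 4 probe sets of CD40 are filled, while those of TNFRSF9 spread from 0.58 to 2.71.

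Of the 40 members 29 were not called in any of the 7 comparisons. Their differences in the combination ran from -0.39 for TNFRSF1B, a receptor of TNF, to 1.003 for TNFSF15, and 26 of the 29 lay within 0.5 of mock. With IRF5-4D 27 of 29 lay within 0.5, from -0.23 for TNFRSF8 (CD30) to 0.91 for TNF, and with IKKβ(EE) 27, from -0.60 for TNFRSF1B to 0.65 for TNFRSF21. TNFRSF21 (death receptor DR6) read 10.99 and 11.22 in mock cells and 11.88 and 11.63 with IKKβ(EE), and the difference of 0.65 (SE 0.14) did not pass (limma adjusted p = 0.129). TNFRSF10B read 11.15 and 10.94 in mock cells and 11.48 and 11.38 in the combination (0.39, SE 0.15, adjusted p = 0.259). TNFRSF10A read 0.71 (SE 0.17, limma adjusted p = 0.0578) in the combination on the probe set that stood for it, and 0.91 without mock array 3. With the mean of its probe sets it passed (0.76, limma adjusted p = 0.0159). TNFRSF1A, the main receptor of soluble TNF, read between 8.23 and 8.79 on the 8 arrays, and TNFRSF1B between 6.88 and 8.29. TNFRSF11A (RANK) read 0.54 above mock with IRF5-4D and TNFRSF10D, a decoy receptor of TRAIL that ran from 7.59 to 9.001 over the arrays, -0.70 in the combination against IKKβ(EE), and neither passed.

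The receptors that B cells use for the survival factor BAFF and for APRIL, TNFRSF13C, TNFRSF13B and TNFRSF17, read 6.27 to 6.80, 5.65 to 5.87 and 2.87 to 3.30 over the arrays, and BAFF itself (TNFSF13B) 4.85 to 5.37. In all 9 genes were below the array median on every array, namely FASLG, TNFSF11, TNFSF14, TNFSF18, TNFRSF11A, TNFRSF11B, TNFRSF17, TNFRSF18 and NGFR, so a change from such a level could have been missed, while 23 were above it on every array.

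Ligands and receptors of a pair were set side by side in the combination. TNFSF9 and TNFRSF9 both rose. CD70 rose while its receptor CD27 read -0.051 (95% interval -0.33 to 0.23), and TNFSF4 rose while TNFRSF4 read 0.24 (-0.044 to 0.52). LTA and LTB rose while LTBR, the receptor of their heterotrimer, read -0.16 (SE 0.12), although TNFRSF14, which also binds lymphotoxin alpha, rose. FAS rose while FASLG read 0.06, at levels of 3.81 to 4.11. Genes close to each other on a chromosome did not all move together: on chromosome 19 CD70 and TNFSF9 rose and TNFSF14 read -0.16, and on chromosome 1 TNFSF4 rose and TNFSF18 read 0.026.

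The signalling genes downstream of these receptors were taken as lists. Of 31 measured TNF receptor adaptors and regulators 0 were called with IRF5-4D in limma, 2 rose with IKKβ(EE) and 7 rose in the combination, with none lower, where 0.314%, 0.516% and 2.66% of all genes rose. The median difference of the list in the combination was 0.23, against -0.027 over all genes. TRAF1, an adaptor of TNFRSF9 and CD40, rose by 3.74 (SE 0.30) there, CFLAR, which blocks caspase activation at FAS, by 3.23 (SE 0.24), TNIP2, a partner of the deubiquitinase A20, by 1.72 (SE 0.18) and TANK, a TRAF-binding protein, by 1.30 (SE 0.18). TRAF1 and CFLAR were also higher than with IRF5-4D alone (2.77 and 2.69) and than with IKKβ(EE) alone (2.34 and 2.19). CYLD and TANK were the 2 that rose with IKKβ(EE), by 1.31 and 1.25. The second list held 12 measured genes for NF-κB subunits, their inhibitors and the IKK complex (CHUK, IKBKB and IKBKG). Of these 1 rose with IRF5-4D (NFKBIZ, 1.88), 1 with IKKβ(EE) (NFKB1, 0.91) and 3 in the combination (NFKBIZ by 2.80, NFKB2 by 1.76 and NFKB1 by 1.24), beside the same shares of all genes. The transfected gene IKBKB counted there through a probe set that read 0.14 with IKKβ(EE), while its responding probe set rose by 7.35. Of 4 measured TNF superfamily genes outside the list, TNFSF13, EDA, EDAR and RELT, 0 were called in limma in any comparison.

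Differences between the 2 arrays of the combination moved with several of these results. Of the 10 members that rose 7 read higher on combination array 1 than on array 3, by 1.11 for TNFSF9, 1.03 for FAS, 0.90 for TNFSF10, 0.83 for TNFSF4, 0.70 for LTA, 0.69 for CD40 and 0.36 for CD70. LTB, TNFRSF14 and TNFRSF9 read lower on array 1, by differences of -0.42, -0.22 and -0.060. In the other groups 9 of the 10 read higher on array 1 in mock cells, 7 with IRF5-4D and 8 with IKKβ(EE), where 48.9%, 46.2% and 48.8% of all genes did. LTA, TNFSF4, TNFSF9, TNFSF10 and CD40 were higher on array 1 in all 4 groups. Among all 526 genes that rose in the combination 76.8% were higher on array 1, and among all genes 49.5% were. The responding IKBKB probe set read 11.11 on array 1 and 9.33 on array 3 of the combination. It was also higher on array 1 with IKKβ(EE) (12.57 and 10.98), in mock cells (4.80 and 4.06) and with IRF5-4D (4.68 and 4.60). The part of these differences in the results was not tested.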

How the data were processed

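Expression was measured on 8 arrays of transfected Reh cells, 2 in each of 4 groups assigned from the sample labels. The deposited values are log2 expression values made by the authors with RMA, per the submitters' processing notes. No source used here gives its version or the chip definition. RMA corrects background, quantile-normalizes between arrays and summarises probes. Probe sets were named from the platform annotation of GEO. The 62 control probe sets and 13522 others without exactly 1 symbol were left out, which left 41091 probe sets of 19775 genes. The probe set brightest on average over the 8 arrays stood for its gene, with no filter on level. Of the 40 members 23 had more than 1 probe set. All 40 were found in the RefSeq table.

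One model of 4 group means was fitted in limma 3.58.1 (R 4.3.3, lmFit and eBayes), with 4 residual and 5.09 prior degrees of freedom. Differences are log2 with the moderated standard error. The 7 comparisons were each group against mock, the combination against each construct, the constructs against each other and the interaction. A second fit took each probe set on its own. The members and lists were chosen with earlier results of these data known. Every member called in any comparison is named with its values, as are the uncalled members with the largest differences or levels. Up to 4 called genes of each signalling list are named by their difference in the combination. The alternatives took a gene's probe set mean, no _x_at probe sets, every probe set, genes above the median level, quantile normalization again, limma with trend, only the groups compared, a replicate block and leaving out each array. The procedure was tested on simulated data. Precision is limited by the small number of arrays.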

Additional observations from a re-analysis of the deposited data

How the results depend on the processing

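Counts of members called are limited by 2 arrays in a group; a fit without 1 array assumes that the lone array varies like the others. With 1 array left out the counts ranged from 0 to 4 with IRF5-4D, 1 to 5 with IKKβ(EE), 8 to 11 in the combination, 3 to 8 and 2 to 6 for the combination against IRF5-4D and against IKKβ(EE), 0 to 6 between the constructs and 0 to 2 for the interaction. With the mean of all probe sets 1 member was called with IRF5-4D (2 in the main analysis) and 3 between the constructs (6). With only genes above the median level 3 were called between the constructs. That filter left out TNFRSF9 and TNFRSF4, which were not tested there, and LTB lost its call (-1.18, limma adjusted p = 0.0608). Labels do not say that equal array numbers mark a shared experiment, and deviations of same-numbered arrays correlated at -0.073 to 0.34 between groups over genes. With the number as a replicate block 5 members were called with IRF5-4D and 9 in the combination against IKKβ(EE) (4 without it), 12 against mock (10). TNFSF9 then passed with IKKβ(EE) (2.17, limma adjusted p = 0.000755) and with IRF5-4D (1.14, adjusted p = 0.0303). It also passed in the combination against IKKβ(EE) (1.49, adjusted p = 0.0027) and between the constructs (1.03, adjusted p = 0.0288). LTB and TNFSF4 passed with IRF5-4D (adjusted p = 0.0328 and 0.0205), TNF and TNFSF15 in the combination against mock (0.0455 and 0.0182). TNF, TNFSF10 and TNFSF15 passed in the combination against IKKβ(EE) (adjusted p = 0.0355, 0.0338 and 0.044). Without _x_at probe sets TNFRSF4 read -0.19 between the constructs in place of 0.71, on another probe set. Other settings kept counts within 1.5 times. The cause of these shifts was not tested, apart from the change of probe set for TNFRSF4 and the genes left out by the level filter. Levels near the lower quartile of an array are not shown to lie above background.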
